A study of Mus musculus with 8 samples.

Results

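The 10 genes described here encode glutathione peroxidases, superoxide dismutases and catalase. They were chosen by symbol (Gpx1, Gpx2, Gpx3, Gpx4, Gpx7, Gpx8, Sod1, Sod2, Sod3 and Cat) from the 52195 genes of the deposited expression table, and all 10 had a row in it. Superoxide dismutases turn superoxide into hydrogen peroxide, with Sod1 working in the cytosol, Sod2 in the mitochondrial matrix and Sod3 outside cells. Catalase, in peroxisomes, splits hydrogen peroxide into water and oxygen. Glutathione peroxidases reduce hydrogen peroxide or lipid peroxides with electrons from glutathione, and several of them carry selenocysteine, the selenium form of cysteine, in the active site.

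Polyadenylated RNA was sequenced from excised and washed kidney, liver, lung and small intestine of male C57BL/6 mice (C57BL/6J in the study's methods), an inbred strain, aged 6 to 10 weeks, with no treatment or genetic change named. Each tissue had 2 libraries, 8 in all. By the paper, both libraries of a tissue came from separate mice, and each mouse gave all 4 tissues. Values are fragments per kilobase of exon, scaled to library size (FPKM), so comparisons between genes depend on the exon length used. That length joins all annotated exons of a gene: 1441 bases for Gpx1 (201 codons) and 10008 for Sod2 (222 codons). The length of the transcripts present was not tested. In whole tissue, fewer cells of a type and less RNA per cell cannot be told apart.

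The library size behind the FPKM, recovered from the steps between low values, was 9164187 to 21444675 reads, the reads recovered over matched genes summed to 9399655 to 22132985 per library, and 3 reads on a gene with 1 kb of exons corresponded to an FPKM of 0.140 to 0.327. This floor covers counting error only. The defining markers of each organ were highest in that organ in both libraries: the hepatocyte markers (4 of 4 above 0) summed to 38954 or more in liver and at most 170 elsewhere. Erythroid markers summed to 10488 and 13423 in the lung libraries, against at most 1287 elsewhere. Hba-a1 and Hbb-bs carried that sum. Alas2, also in that list, went the other way, with 35.5 and 31.6 in liver and 14.9 and 18.4 in lung. The lung libraries also had summed markers of cardiac muscle (96.5 and 103.6, at most 0.315 elsewhere) and endothelial cells (260 and 305, at most 20.8 elsewhere). In small intestine, the 5 pancreatic acinar markers summed to 2099 and 978, against at most 77.0 elsewhere. The part of these cells in the values below was not tested.

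The coding sequences show how the 6 glutathione peroxidases divide by their active site. Each stretch below is 51 bases of coding sequence, read 5′ to 3′ along the gene from GRCm38, with the active-site codon in capitals. TGA is read as selenocysteine in Gpx1, Gpx2, Gpx3 and Gpx4, and is otherwise a stop codon. In Gpx7 and Gpx8 the codon that aligns with it is TGT or TGC, both of which encode cysteine.
Gpx1: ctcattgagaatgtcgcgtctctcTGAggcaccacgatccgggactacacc
Gpx2: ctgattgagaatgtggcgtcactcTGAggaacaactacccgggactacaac
Gpx3: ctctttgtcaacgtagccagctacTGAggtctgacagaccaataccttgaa
Gpx4: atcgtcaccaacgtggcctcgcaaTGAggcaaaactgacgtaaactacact
Gpx7: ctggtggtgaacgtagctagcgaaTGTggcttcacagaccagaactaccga
Gpx8: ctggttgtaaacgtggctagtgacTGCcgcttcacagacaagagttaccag
The capitals are codon 47 of Gpx1 (chr9:108339451-108339453, plus strand, exon 1), codon 40 of Gpx2 (chr12:76795256-76795258, minus strand, exon 1) and codon 73 of Gpx3 (chr11:54907256-54907258, plus strand, exon 2). They are codon 129 in the longest coding sequence of Gpx4 (chr10:80054737-80054739, plus strand, exon 3), codon 56 of Gpx7 (chr4:108403430-108403432, minus strand, exon 2) and codon 79 of Gpx8 (chr13:113045661-113045663, minus strand, exon 2). Between the encoded proteins, Gpx1 and Gpx2 were the most alike pair of the 15 glutathione peroxidase pairs, with 63.2% of 190 aligned residues identical, and Gpx7 and Gpx8 shared 48.4% of 186. Gpx1 and Gpx8 were the least alike, with 30.2% of 172. Sod1 and Sod3, both copper and zinc enzymes, shared 42.2% of 147 aligned residues, against 27.3% of 121 for Sod1 and Sod2, the manganese enzyme.

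The order of the tissues differed between the selenium-dependent glutathione peroxidases. Gpx3, the secreted plasma form, had an FPKM of 12752 and 11142 in the kidney libraries and was the 14th highest of the 24437 genes above 0 there. It was 442 and 610 in lung, 35.6 and 28.01 in small intestine and 17.0 and 22.3 in liver. The kidney libraries stood far above the other 6, and no pair of tissues overlapped.

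With limma, the log2(FPKM + 1) mean of a tissue was set against that of the remaining 3, and a gene was called at an adjusted p under 0.05 over all 16328 genes tested and an absolute log2 difference over 1. For Gpx3 the difference was 7.41 in kidney (SE 0.18, limma adjusted p = 5.6e-07), -4.84 in liver and -3.95 in small intestine. Between pairs of tissues, 5 of the 6 differences of Gpx3 were called. The exception was liver against small intestine, with a log2 difference of -0.67 (SE 0.22) that stayed under the size asked for, and of 0.16 after median-of-ratios scaling. That scaling sets the median gene equal between libraries and is given beside a call wherever it changes it. Gpx3 in lung, although below kidney, was called higher than the log2 mean of the other 3 tissues as deposited, by 1.38, and was not called after scaling, at 0.21.

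Gpx1, the ubiquitous cytosolic and mitochondrial form, had a high and a low pair of tissues. Its FPKM was 924 and 801 in liver and 709 and 895 in kidney, against 175 and 187 in lung and 228 and 148 in small intestine. As deposited, liver and kidney overlapped, as did lung and small intestine, and all 4 libraries of the first pair were above all 4 of the second. Gpx1 was called higher in liver (1.53, SE 0.19) and kidney (1.38) and lower in lung (-1.47) and small intestine (-1.44), under both scalings. Kidney and liver differed by -0.11 (SE 0.23), and lung and small intestine by -0.02 (SE 0.23), neither of which was called. After scaling these differences were larger, -0.66 and -0.80, and again not called.

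Gpx2, the gastrointestinal form, had an FPKM of 63.1 and 53.3 in small intestine and 7.09 and 7.47 in lung. In kidney it was 0.029 and 0.072 and in liver 0.068 and 0.090, which rested on 2 to 4 reads per library, so those tissues were at the limit of detection and no ratio to them is given. Differences of Gpx2 that involve them depend on the pseudocount: the one in small intestine was 4.81 with a pseudocount of 1 and 6.64 with 0.1, with the same call. The SE of the former was 0.14 (limma adjusted p = 2.89e-07), and lung minus small intestine was -2.83 (SE 0.17). The pairwise difference of kidney and liver, -0.04 (SE 0.17), was the single pair not called. Gpx2 in lung, although below small intestine, was called higher than the log2 mean of the other 3 tissues as deposited, at 1.03, but not after scaling (0.28), nor without lung replicate 2 (0.99) or small intestine replicate 2 (0.99).

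Gpx4, which reduces lipid peroxides in membranes, was present in every library. Its FPKM was 324 and 433 in kidney, 272 and 220 in small intestine, 190 and 207 in lung and 113 and 114 in liver. Neighbouring tissues in that order did not overlap, but only 2 of the 6 pairs, liver against kidney and liver against small intestine, were called as deposited. After scaling, liver against small intestine was not called (-0.24), while kidney was called higher than lung (2.02) and lung lower than small intestine (-1.09). Gpx4 was called higher in kidney (1.08, SE 0.15), a call lost without kidney replicate 2 (0.87). It was called lower in liver as deposited (-1.21) and not after scaling (-0.19), while in lung the difference of -0.14 was not called as deposited and was called lower after scaling (-1.32). Of the 31-base words in the Gpx4 exons, 38.7% also occur in Gpx4-ps2, a transcribed pseudogene on chromosome 10, so the split of reads between both rows is uncertain. The FPKM of Gpx4-ps2 had the same tissue order, with means of 143 in kidney, 97.9 in small intestine, 80.9 in lung and 39.2 in liver.

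The cysteine forms Gpx7 and Gpx8, both of the endoplasmic reticulum, were highest in lung. Gpx8 had an FPKM of 39.8 and 35.3 in lung, 6.23 and 5.22 in kidney, 3.36 and 2.43 in small intestine and 0.322 and 0.666 in liver, the last on 3 and 7 reads. No pair of tissues overlapped, and 5 of the 6 pairwise differences were called, all but kidney against small intestine (0.79, SE 0.21), which was called after scaling (1.06). The difference was 3.51 in lung (SE 0.17, limma adjusted p = 1.63e-06) and -2.75 in liver, and both were called after scaling (2.52 and -2.22). In small intestine the difference of -0.91 was not called, and was called without small intestine replicate 1 (-1.08).

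Gpx7 had 10.5 and 9.80 FPKM in lung, 1.99 and 2.40 in small intestine, 0.579 and 0.807 in kidney and 0.593 and 0.526 in liver. Kidney and liver overlapped, and their values rested on 7 to 18 reads per library. The lung difference was 2.45 (SE 0.14) and 1.55 after scaling, called both times. Gpx7 was called lower in kidney (-1.17) and liver (-1.33) as deposited, and in neither after scaling (-0.89 and -0.76). Liver against small intestine (-1.03) was likewise called as deposited only (-0.64 after scaling).

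**Figure D1:**
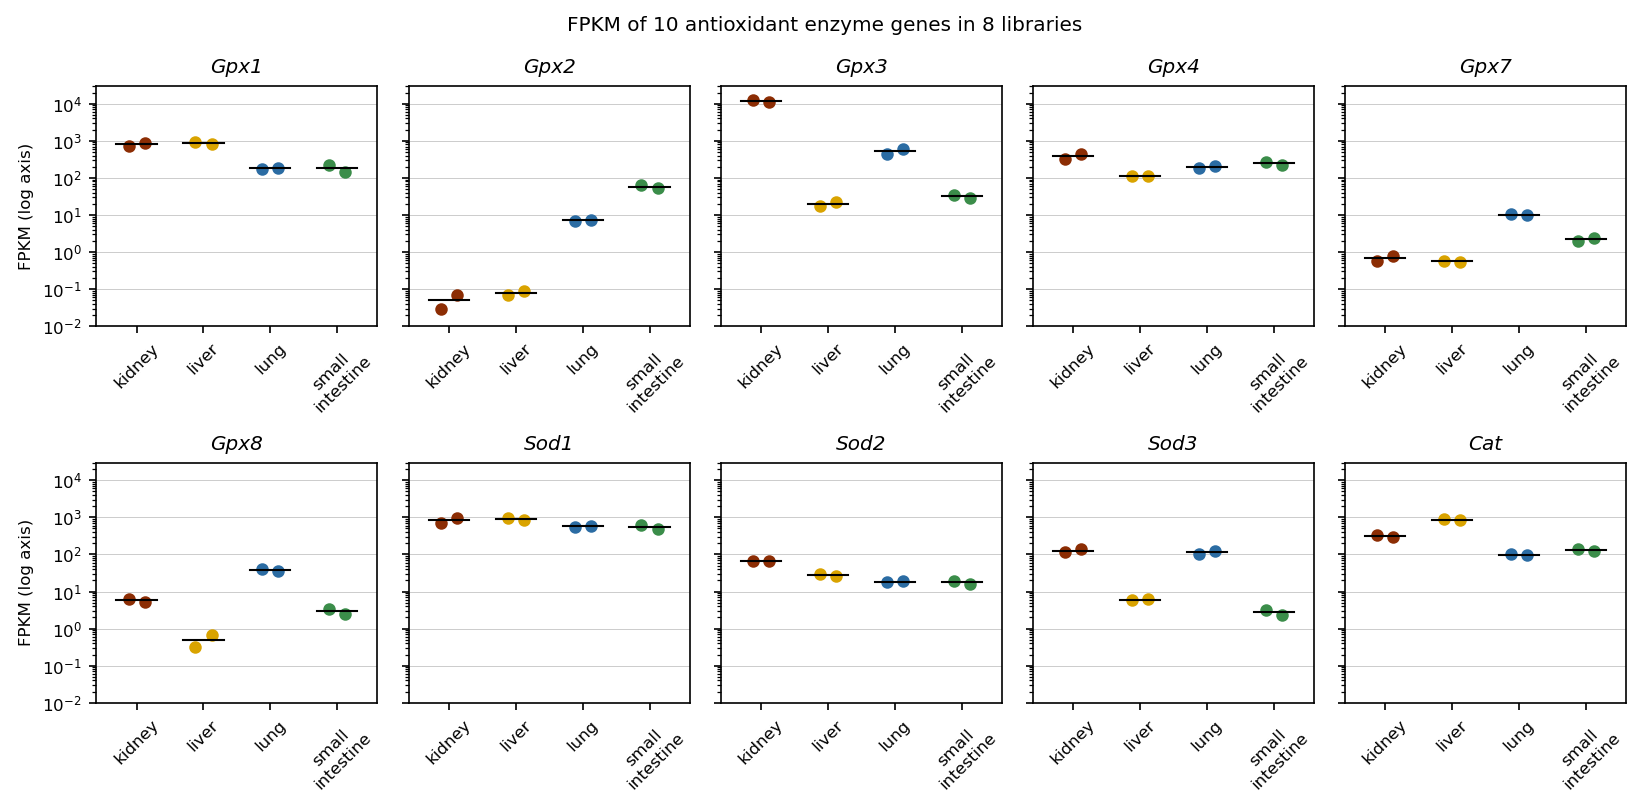
FPKM (log axis) of the 10 genes in kidney, liver, lung and small intestine. Points are the 2 libraries of a tissue and bars their mean; Gpx3 in kidney is 11142 or more in both libraries, Gpx2 in kidney and liver lies below 0.1, and Sod1 stays between 487 and 973 in all 8.

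Of the dismutases, Sod1 had an FPKM of 723 and 973 in kidney, 957 and 856 in liver, 558 and 595 in lung and 630 and 487 in small intestine. As deposited, its highest tissue mean was 1.62 times the lowest, the smallest such ratio of the 10 genes, but after scaling it was 4.99 times, above the 4.29 of Gpx4. Neighbouring tissues overlapped except kidney and lung. No tissue and none of the 6 pairs was called for Sod1 as deposited. After scaling it was called higher in liver (1.51) and lower in lung (-1.56), and 3 pairs were called.

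Sod2 had an FPKM of 65.0 and 65.2 in kidney, 30.02 and 26.3 in liver, 17.6 and 18.6 in lung and 19.5 and 16.3 in small intestine. Kidney stood above the other 6 libraries, with a difference of 1.60 (SE 0.12, limma adjusted p = 3.34e-05) that was called under both scalings. The differences of kidney from the other 3 tissues were each called as deposited, and that from liver (1.18, SE 0.15) was not after scaling (0.65). Lung and small intestine overlapped as deposited and differed by 0.02 (SE 0.15), and by -0.71 after scaling, not called either time. Liver was not called against either of them as deposited (0.61 and 0.63) and was after scaling (2.18 and 1.47). In lung the difference of -0.79 was not called as deposited and was called lower after scaling (-1.91). Part of the Sod2 exons, 26.7% of their 31-base words, occurs in other genes, so its counts are uncertain. No exon of the 10 genes overlaps another gene.

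Sod3, the extracellular dismutase, was high in kidney (116 and 136) and lung (105 and 127), and low in liver (5.98 and 6.09) and small intestine (3.17 and 2.32). Kidney and lung overlapped, and differed by 0.12 (SE 0.18), not called as deposited but called after scaling (1.22). All 4 kidney and lung libraries were above the other 4. Against the other tissues the difference was 3.13 in kidney and 2.97 in lung (SE 0.14 for both), and -2.43 in liver and -3.66 in small intestine, each called under both scalings. Liver and small intestine did not overlap, and their difference of 0.92 (SE 0.18) was not called as deposited but was called after scaling (1.68).

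Cat, the catalase gene, had an FPKM of 893 and 830 in liver, 340 and 297 in kidney, 137 and 124 in small intestine and 101 and 95.5 in lung. No pair of tissues overlapped, and 5 of the 6 pairs were called. The exception was lung against small intestine, at -0.40 (SE 0.14), which was called after scaling (-1.18). The liver difference was 2.42 (SE 0.11, limma adjusted p = 1.93e-06) and 3.44 after scaling, and Cat was called lower in lung (-1.74) and small intestine (-1.20) under both. Kidney, at 0.51 (SE 0.11), was not called.

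**Figure D2:**
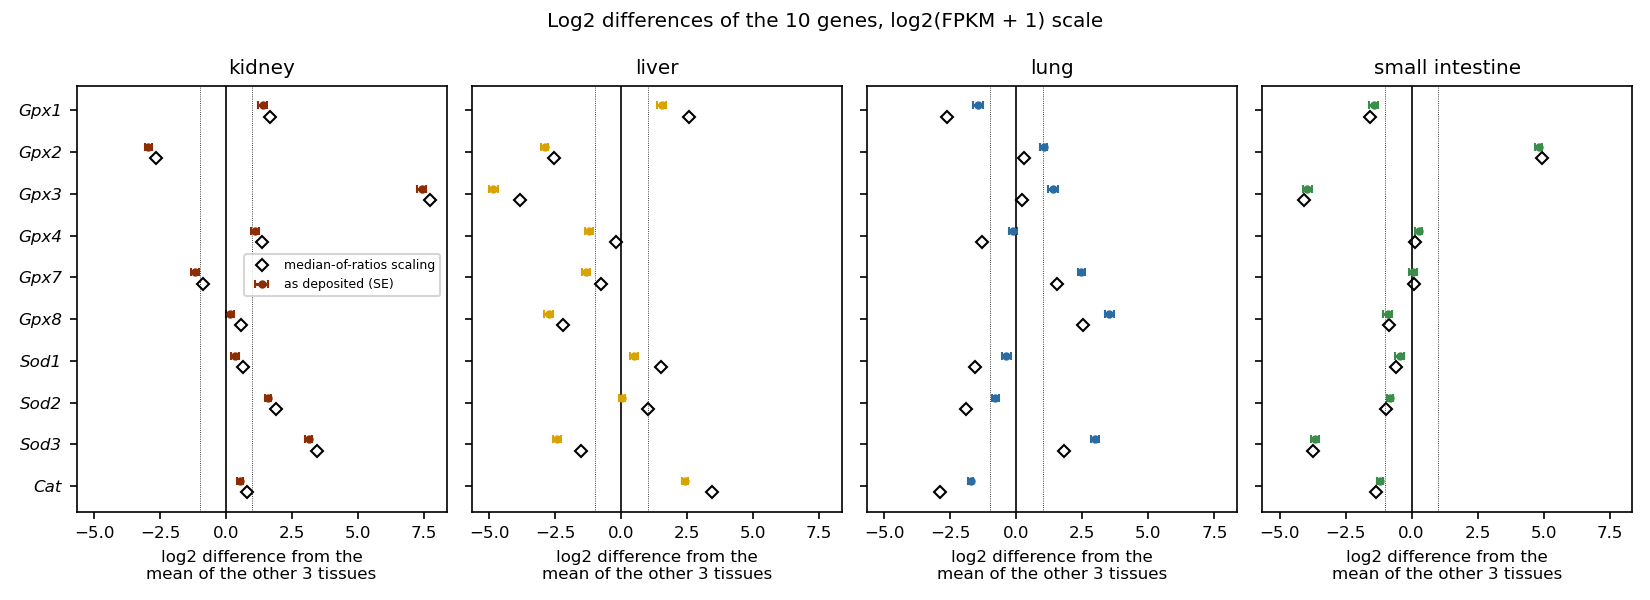
Log2 difference of each of the 10 genes in a tissue from the mean of the other 3 tissues, on the log2(FPKM + 1) scale. Circles with SE bars are values as deposited, open diamonds values after median-of-ratios scaling, and dotted lines mark -1 and 1; Gpx3 in kidney (7.41) is farthest from 0, and scaling moves every gene down in lung and up in liver.

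Counted together, 5 of the 10 genes were called higher in kidney (Gpx1, Gpx3, Gpx4, Sod2 and Sod3), against 8.65% of all genes tested, and 2 lower (Gpx2 and Gpx7), against 16.1%. In liver 2 were higher (Gpx1 and Cat), against 6.56%, and 6 lower, against 32.7%. In lung 5 were higher (Gpx2, Gpx3, Gpx7, Gpx8 and Sod3), against 40.7%, and 2 lower (Gpx1 and Cat), against 8.26%. In small intestine Gpx2 alone was higher, against 13.7%, and 4 were lower (Gpx1, Gpx3, Sod3 and Cat), against 11.3%. The count of 5 in lung is therefore close to the share of all genes. After scaling, with 15542 genes tested, 5 of the 10 were higher in kidney, against 12.3% of all genes, and 1 lower, against 12.7%. In liver 3 were higher, against 13.4%, and 4 lower, against 14.7%. In lung 3 were higher, against 15.1%, and 5 lower, against 16.9%, and in small intestine 1 was higher, against 13.7%, and 4 lower, against 12.2%. The median of all genes tested lay at -0.34 in kidney, -0.72 in liver, 0.82 in lung and -0.01 in small intestine as deposited, and between -0.10 and -0.05 after scaling. The median of the 10 genes as deposited was 0.80 in kidney, -1.27 in liver, 0.44 in lung and -0.87 in small intestine. After scaling, the median in lung turned negative, as it lay midway between -1.32 (Gpx4) and 0.21 (Gpx3). In kidney, liver and small intestine the median kept its sign after scaling.

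Between pairs of tissues, 6 of the 10 genes differed between kidney and liver (5 higher in kidney), against 23.1% of all genes, and 7 between kidney and lung (4 higher in kidney), against 50.3%. For kidney and small intestine it was 6 (5 higher in kidney), against 29.5%, and for liver and lung 7 (2 higher in liver), against 62.7%. Liver and small intestine differed for 6 (2 higher in liver), against 36.2%, and lung and small intestine for 5 (4 higher in lung), against 40.6%. After scaling, all 10 genes differed between kidney and lung (7 higher in kidney), against 35.7% of all genes, and 5 between kidney and liver (4 higher in kidney), against 23.7%. For kidney and small intestine it was 7 (6 higher in kidney), against 30.2%, and for liver and lung 9 (4 higher in liver), against 39.3%. Liver and small intestine differed for 7, against 31.7%, and here the balance turned, with 5 higher in liver. Lung and small intestine differed for 7 (4 higher in lung), against 32%.

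Within each library, the make-up of the glutathione peroxidases was compared as a share of their summed FPKM. A share does not depend on scaling between libraries but does depend on the exon length of each gene. Gpx3 made up 90.9% ± 2.23 (SD, n = 2) in kidney and 54.4% ± 4.68 in lung. In liver it was 1.99%, and Gpx1 made up 86.5% ± 1.56. Small intestine was the most divided, with 46.8% ± 2.44 from Gpx4, 35.1% from Gpx1 and 11.1% from Gpx2. The summed FPKM of the 10 genes does depend on the scaling. As deposited it was 14492 ± 769 in kidney, 2799 ± 200 in liver, 1769 ± 174 in lung and 1238 ± 220 in small intestine. The scaled sums were 17049 ± 3411 in kidney, 4794 ± 772 in liver, 954 ± 63.9 in lung and 1151 ± 162 in small intestine, so that lung then came below small intestine. Most of the kidney sum was Gpx3. The other 9 genes, summed after the values had been seen, came to 2544 ± 370 in kidney and 2779 ± 204 in liver as deposited, and to 3069 ± 1197 and 4760 ± 775 after scaling, so that liver was then the higher by the mean, with overlapping libraries as deposited.

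Sod1 made up 81.4% of the dismutases in kidney and 81.2% in lung, against 96.4% in both liver and small intestine. Sod3 supplied 12.2% in kidney and 16.3% in lung. Sod2 supplied 6.37% ± 1.16 in kidney and 2.52% to 3.22% in the other 6 libraries. The log2 ratio of Cat to Gpx1, 2 enzymes that remove hydrogen peroxide, was 0.00 ± 0.07 in liver (-0.049 and 0.051 in its libraries), and -1.32 ± 0.37 in kidney, -0.88 ± 0.13 in lung and -0.50 ± 0.34 in small intestine. On recovered reads, with no correction for the longer exons of Cat, it was 0.86 in liver, -0.47 in kidney, -0.023 in lung and 0.36 in small intestine, the last with its sign turned. Of 44 two-sided exact permutation tests of a share or ratio in 1 tissue against the other 6 libraries, 10 reached the smallest p that the 28 choices of 2 libraries allow, p = 0.0357. The smallest adjusted p was 0.157. At most 1 tissue per share or ratio could take the smallest p, so no adjusted p under 0.05 was possible, and the miss says nothing of whether the shares differ.

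**Figure D3:**
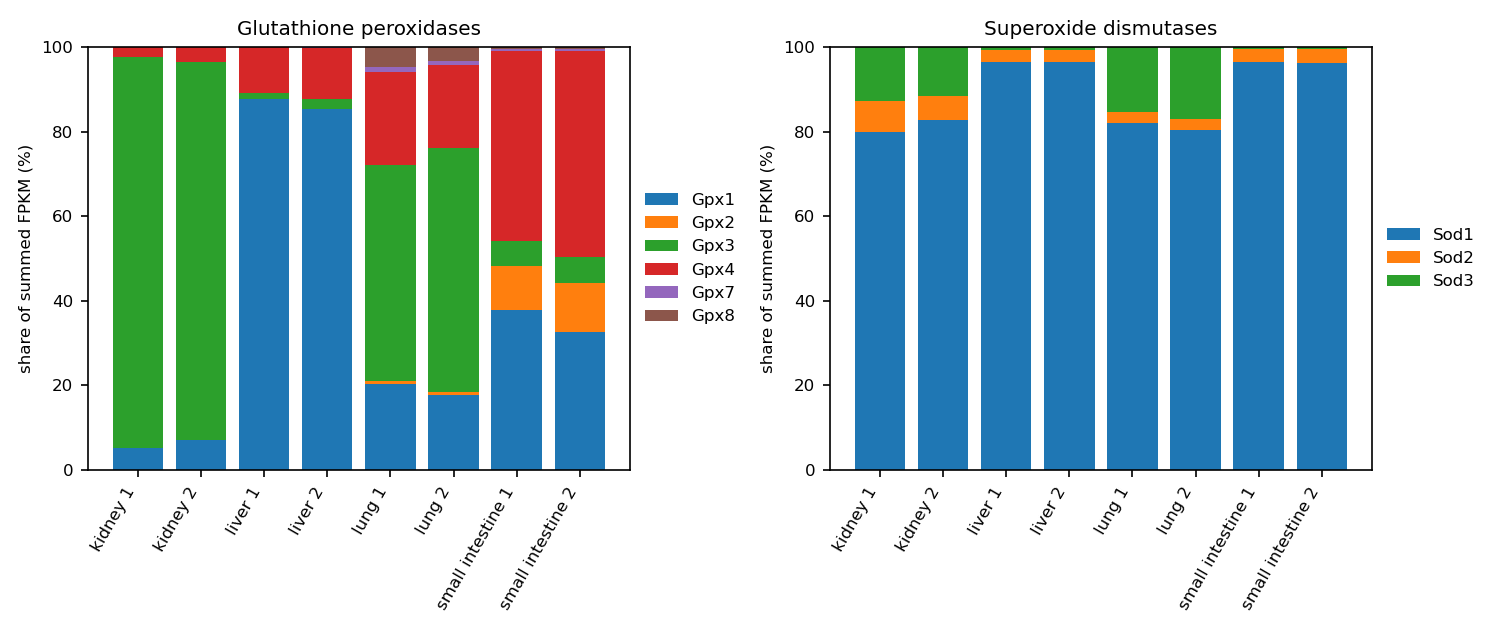
Share (%) of each gene in the summed FPKM of the 6 glutathione peroxidases (left) and the 3 dismutases (right), 1 bar per library. Gpx3 fills 89.3% and 92.5% of the kidney bars, Gpx1 85.4% and 87.6% of the liver bars, and Sod3 is visible in kidney and lung.

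Beside Gpx4-ps2, other rows of the family were in the table. Gpx6, known from olfactory tissue, had an FPKM of 26.4 and 29.1 in kidney and at most 0.877 elsewhere. Gpx5, known from the epididymis, was listed at 0 in all libraries but liver replicate 2 (0.058). The pseudogene Gpx2-ps1, which holds 9.24% of the 31-base words of Gpx2, was 5.05 and 4.64 in small intestine, 0.538 and 0.141 in lung and listed at 0 in kidney and liver.

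The genes whose values over the 8 libraries were most like each member were taken from 4283 genes with a mean FPKM of at least 10, by the root mean square distance of centred log2(FPKM + 1) values. For Gpx8 they were Serpinh1, a collagen chaperone (0.22), and Col4a1, a basement membrane collagen (0.23). For Gpx2 they were Casp1 (0.29) and Klf5 (0.35), for Gpx3 Ldhb (0.76) and Napsa (0.83), and for Sod3 Fabp3 (0.48) and Atp11a (0.55). For Cat they were Fads2, a fatty acid desaturase (0.20), and Acsl1, an acyl-CoA synthetase (0.23), and for Gpx1 Shmt2 (0.28) and Nit2 (0.30). Sod2 was nearest to Nfs1, the mitochondrial cysteine desulfurase (0.15), and Mpc1, the mitochondrial pyruvate carrier (0.16). Sod1 was nearest to Urod (0.12) and Mrpl38 (0.16), Gpx7 to Acot7 (0.22) and Tuba1b (0.22), and Gpx4 to Gpx4-ps2 (0.11), with which it shares sequence, and Nhp2 (0.12). Among the members themselves, Gpx1 and Cat were nearest to each other (0.52), as were Gpx7 and Gpx8 (0.92) and Sod1 and Sod2 (0.55).

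The promoters of 2 genes with unlike levels are shown, Gpx2, which was near the limit of detection in kidney and liver, and Sod1, which had an FPKM of 487 or more in all 8 libraries. Each is the 250 bases before the RefSeq start (GRCm38.p6), 5′ to 3′ along the gene, from chr12:76795555-76795804 (minus strand) and chr16:90220512-90220761 (plus strand). Capitals mark matches on either strand to the GC box GGGCGG, the CCAAT box CCAAT, the TATA box TATAAA, the antioxidant response element core TGACNNNGC or the CDX-type motif TTTATNG.
Gpx2: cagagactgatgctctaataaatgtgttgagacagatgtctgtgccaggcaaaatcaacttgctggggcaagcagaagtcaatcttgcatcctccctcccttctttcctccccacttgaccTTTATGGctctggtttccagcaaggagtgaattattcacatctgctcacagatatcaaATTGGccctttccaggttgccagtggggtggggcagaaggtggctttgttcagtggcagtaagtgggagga
Sod1: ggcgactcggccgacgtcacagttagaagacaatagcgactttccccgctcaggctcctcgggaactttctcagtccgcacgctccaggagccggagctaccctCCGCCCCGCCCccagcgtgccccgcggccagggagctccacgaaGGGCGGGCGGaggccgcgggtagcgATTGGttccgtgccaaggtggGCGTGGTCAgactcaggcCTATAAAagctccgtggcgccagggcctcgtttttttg
Gpx2 had a CDX-type match at -129 and a CCAAT match at -71 from the start, and no GC box or TATA box. Sod1 had GC boxes, a CCAAT match, an antioxidant response element match at -56 and a TATA box at -37, with a CDX-type match that overlaps the TATA box. Over 32851 mouse promoter windows of 300 bases, the shares with a match were 35.7% for the GC box, 37.4% for CCAAT, 13.6% for TATAAA, 12.4% for TGACNNNGC and 10.9% for TTTATNG. Windows were found for 9 of the 10 genes, Sod3 excepted, 12 windows in all. Sod1 was the one gene with TGACNNNGC or TATAAA. A GC box was in 9 windows, of Cat, Gpx1, Gpx3, Gpx4, Gpx7, Sod1 and Sod2. A CCAAT box was in 8, of Cat, Gpx2, Gpx3, Gpx4, Sod1 and Sod2. Gpx4 had several windows in both counts, and some of them overlap, so the same sites were counted again. The last motif searched, the HNF4-type repeat CAAAGTCCA, was in none of the 12 and in 0.475% of all windows.

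Around these enzymes, 70 genes in 6 lists were followed, and 66 were tested. Their counts are to be read against the shares of all genes: as deposited 8.65% higher and 16.1% lower in kidney, 6.56% and 32.7% in liver, 40.7% and 8.26% in lung, and 13.7% and 11.3% in small intestine. After scaling these shares were 12.3% and 12.7%, 13.4% and 14.7%, 15.1% and 16.9%, and 13.7% and 12.2% in the same order. The list for glutathione synthesis, recycling and breakdown (10 of 11 tested) had 7 genes higher and 0 lower in kidney, with a median of 1.26 against -0.34 for all genes. Ggt1, which breaks down extracellular glutathione, had an FPKM of 215 and 199 in kidney, 134 and 124 in small intestine and at most 1.74 in the other 4 libraries (kidney 4.76, SE 0.19). Dpep1, a dipeptidase acting after it, was 0.615 and 0.662 in liver and 42.5 or more elsewhere (liver -5.30, SE 0.15). Gclc, the catalytic subunit of the rate-limiting synthesis step, was 11.1 and 15.6 in small intestine and 49.999 or more elsewhere (-2.21, SE 0.18). In lung the list had 1 higher and 4 lower as deposited, and 0 and 6 after scaling, and in liver 1 and 3, and 5 and 2 after scaling.

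Of the 16 tested genes that make hydrogen peroxide or superoxide, 7 were higher and 8 lower in kidney, 8 higher and 4 lower in liver, and 3 higher and 7 lower in both lung and small intestine. Beside these, 16.1% of all genes were lower in kidney, 6.56% higher and 32.7% lower in liver, and 40.7% higher and 8.26% lower in lung. After scaling these counts were 8 and 7 in kidney, 8 and 3 in liver, 1 and 9 in lung and again 3 and 7 in small intestine. Several are peroxisomal oxidases. Uox, urate oxidase, had an FPKM of 329 and 331 in liver and at most 1.27 elsewhere (7.89, SE 0.20). Hao1, glycolate oxidase, was 82.5 and 109 in liver and at most 0.247 elsewhere (6.39, SE 0.17), while its relative Hao2 was 120 and 116 in kidney and at most 0.450 elsewhere (6.52, SE 0.16). Beside them, Cat had its highest FPKM in liver and its next in kidney.

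Of the 13 peroxiredoxins and thioredoxins, the other peroxide-removing system, 2 were higher and 2 lower in kidney, 1 and 4 in liver, and 3 and 3 in lung, and in small intestine 3 and 2. Prdx5 was 460 and 633 in kidney, against at most 145 elsewhere (2.72, SE 0.16). Srxn1, which repairs overoxidized peroxiredoxins, was 44.97 and 74.6 in small intestine and at most 17.4 elsewhere (2.44, SE 0.20), and Txnip, a thioredoxin inhibitor, was 293 and 296 in lung and at most 80.0 elsewhere (2.71, SE 0.22). The 4 lower in liver stand beside 32.7% of all genes, and the 3 higher in lung beside 40.7%. After scaling, 9 of the 13 were lower in lung, against 16.9% of all genes, and 6 were higher in liver, against 13.4%.

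For selenium supply and selenocysteine insertion, 9 of 10 genes were tested. In kidney 1 was higher, Lrp2, an endocytic receptor that takes up selenoprotein P, with an FPKM of 65.5 and 26.1 there and at most 2.08 elsewhere (4.80, SE 0.30). In lung 2 were lower as deposited and 5 after scaling: Sephs2, which makes the selenium donor, was 6.82 and 6.47 there and 34.0 or more elsewhere (-3.02, SE 0.15), and Selenop, the selenium carrier, was 216 and 214 there and 503 or more elsewhere (-1.72, SE 0.16). In liver 2 were higher and 1 lower as deposited and 4 and 1 after scaling, and in small intestine 0 and 1 both times. Of the 6 copper supply genes, Ccs, the copper chaperone of Sod1, was 24.7 and 27.0 in lung and 27.7 to 97.1 elsewhere (-1.19, SE 0.12). Slc31a1, the copper importer, was 16.4 and 17.1 in lung and 30.1 or more elsewhere (-1.25, SE 0.13), and Atp7b, a copper exporter, was 0.179 and 0.107 in kidney and 1.53 or more elsewhere (-2.00, SE 0.18). Over the copper list, liver and small intestine each had 1 gene called, higher, while kidney had 1 call in each direction and lung 1 higher and 2 lower. After scaling, with 5 of these genes tested, small intestine had 0 higher and 1 lower and lung 0 and 2.

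The 12 genes of the NRF2 pathway, the transcription factor that responds to oxidants, had 7 higher and 2 lower in small intestine under both scalings, with a median of 1.28 against -0.01 for all genes as deposited. In liver 0 were higher and 7 lower as deposited, where 32.7% of all genes were lower, and 1 and 3 after scaling, where 14.7% were. In kidney 2 were higher and 2 lower as deposited and 3 and 0 after scaling, and in lung 3 and 1 as deposited and 0 and 4 after scaling. G6pdx, which supplies NADPH for reducing glutathione, was 1.28 and 1.26 in liver and 6.92 or more elsewhere (-2.50, SE 0.12). Hmox1, heme oxygenase, was 1.22 and 1.31 in small intestine and 6.61 or more elsewhere (-2.56, SE 0.15), and Me1, malic enzyme, was 125 and 96.2 in kidney and at most 29.2 elsewhere (2.63, SE 0.16). For each gene named in these lists, the call kept its direction after scaling.

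**Figure D4:**
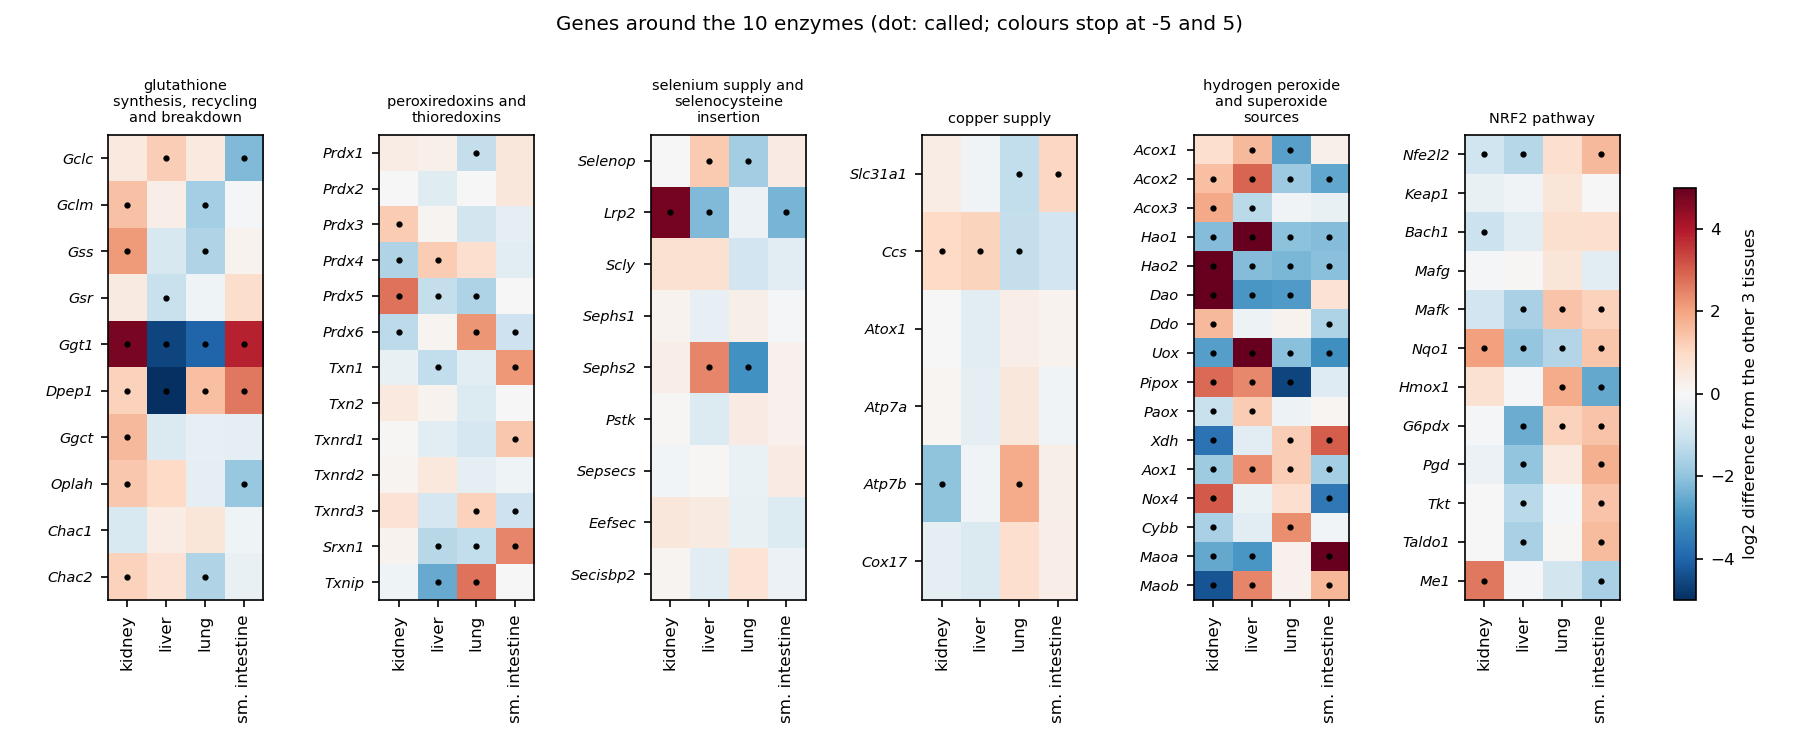
Log2 difference from the other 3 tissues, log2(FPKM + 1) scale as deposited, for the 66 tested genes of 6 lists (red higher, blue lower, colours stop at -5 and 5; a dot marks a call). The kidney column of the glutathione list has 7 dots, all in red cells, and the liver column of the NRF2 list has 7, all in blue cells.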

How the data were processed

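The authors deposited FPKM values for 52195 genes in 8 mouse libraries. By the paper's methods, reads were separated by index with bbduk, mapped to the Ensembl release of GRCm38 with STAR 2.5.3a and turned into FPKM by DESeq2's fpkm function. The counting program, strand setting and multi-mapping rule are not given in the sources used here. FPKM corrects for length and depth, but abundant transcripts in a library lower all its other values.

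Tissue and replicate number came from the labels. The 16328 genes that reached an FPKM of 1 in 2 or more libraries entered limma 3.58.1 (trend, R 4.3.3) on log2(FPKM + 1), with Benjamini-Hochberg adjustment over all of them. All 10 members passed this filter. In this scale the differences of low genes are understated. With 2 libraries per tissue, p-values measure the spread between these mice only. Reads were recovered with GENCODE M21 exon lengths (51844 symbols, 99.3%), and 94.5% to 96.1% of low values per library were whole within 0.02 reads. The alternatives were a pseudocount of 0.1, no filter, median-of-ratios scaling, leaving out mitochondrial genes and 7 copies, limma-voom on recovered reads, a replicate block and leaving out each library. The members, the lists and the motifs were chosen with earlier results of these data known. The rule named all 10 members, the 3 genes with the largest difference in each list, the 2 nearest genes to each member, markers, and other family rows. The limma step was also run on simulated data, with the outcome not given here. Sequences came from GRCm38 and RefSeq (GRCm38.p6), coding identity from Biopython 1.88.

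Whether replicate numbers mark mice is not given. The deviations of same-numbered libraries correlated at -0.22 to 0.05 between tissues, so the numbers were not treated as pairs.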

Additional observations from a re-analysis of the deposited data

How the results depend on the processing

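Of the 40 differences of a member in a tissue, all 40 kept direction and call under the pseudocount of 0.1, without a filter, with limma-voom on recovered reads and with the replicate block, in which the counts of members called stayed at 7, 8, 7 and 5 in kidney, liver, lung and small intestine. Median-of-ratios scaling moved 9 calls, 5 lost and 4 gained, named in the report. Leaving out mitochondrial genes together with their 7 copies lost Gpx2 in lung (0.83) and Gpx7 in kidney (-0.87), gained Sod2 in lung (-1.12) and Cat in kidney (1.11), and reversed Sod2 in liver (-0.16, not called). Uncalled values near 0 also changed sign for Sod2 in liver without liver replicate 1 (-0.075) or small intestine replicate 2 (-0.024), in a range up to 0.11, and for Gpx7 in small intestine without small intestine replicate 2 (-0.045), in a range up to 0.14. The cause was not tested.

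Without each library, members called ranged from 6 to 7 in kidney and lung, at 8 in liver and from 5 to 6 in small intestine.

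As shares of recovered reads, which do not correct for length, Sod1 made up 74.7%, 92.2%, 78.9% and 92.1% of the dismutases in kidney, liver, lung and small intestine, and Gpx1 84.2% of the peroxidases in liver. The log2 ratios became -2.35, -3.68, -3.66 and -3.62 for Sod2 over Sod1 in the same order, and -0.47, 0.86, -0.023 and 0.36 for Cat over Gpx1, the last reversed. With Gpx3 left out of the sum, Gpx1 was 88.2% in liver and Gpx4 49.8% in small intestine. Without liver replicate 1 or 2, Cat over Gpx1 in liver was 0.051 or -0.049. Depth limits Gpx2 in kidney and liver, and Gpx7 and Gpx8 in liver (7 reads or fewer per library).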
